A study of Arabidopsis thaliana with 2 samples.

Results

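AT1G06830 and AT4G15660 encode CC-type monothiol glutaredoxins, and ARR15 encodes a type-A response regulator of cytokinin signalling. These 3 genes, of 13356 named on the array, were taken by locus or symbol and read from the brightest probe set that carries 1 gene only; each has 1 such probe set. They were selected on these same 2 signals, being lower with NPA than in the control, so their own ratio is a description and supports nothing by itself. The study hybridised RNA from shoots of Arabidopsis thaliana (ecotype Col-0) to 2 ATH1 arrays of Affymetrix, 1 for each group. Both groups were wild-type plants of about 2 weeks with about 6 rosette leaves, grown under 16 h of light. The control group grew on medium with DMSO, and the other group on medium with an equal volume of DMSO holding N-(1-naphthyl)phthalamic acid (NPA), which blocks polar auxin transport. The labels state the NPA dose as 10 uM in one place and 10 mM in another, and this was not resolved. With 1 array a group, no difference below has a replicate check, no test was run, and how many plants each array stands for is not given in the sources used here.

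Glutaredoxins are small proteins of the thioredoxin fold that use glutathione to reduce disulfides. The CC type, also called ROXY proteins after ROXY1, is found in land plants and carries neighbouring cysteines in its active site. Several of its members bind TGA transcription factors and act in flower development, in the salicylic acid response or in nitrogen signalling, and transcripts of some follow nitrate and cytokinin supply. In cytokinin signalling, histidine kinase receptors pass phosphate through carrier proteins to response regulators. The type-B regulators activate transcription, and their targets include the type-A genes, such as ARR15, whose products damp the same pathway.

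Signals were in linear intensity units, and both arrays had been scaled to the same trimmed mean before deposit. A signal up to the 40th percentile of its array, 28.3 in the control and 27.9 with NPA, was set to that floor, and a gene counted as measured when at least 1 array exceeded it. A ratio with 1 array at the floor is a bound and is given as at least so many fold. Across the 18 spike-in probe sets added at hybridisation, the log2 ratio of NPA over control had an SD of 0.21 and ran from -0.61 to 0.20, a spread that holds no difference between plants. The shoot markers LHCB4.1, LHCB4.2, SBPASE and PRK had signals from 3671 to 5085 in the control and from 2147 to 4230 with NPA. Of the root-expressed markers, PYK10 had 609 and 425 and EXPA18 had 36.8 and 28.3, the last barely above the floor. All 6 measured markers had log2 ratios below 0, from -0.77 to -0.21, where 52.6% of all measured genes were below 0. LHCB4.1 and LHCB4.2 turned positive after lowess centring, and LHCB4.2 also after quantile normalization. The part of the markers in the results on the glutaredoxins and ARR15 was not tested.

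AT1G06830 gave a signal of 243 in control shoots and of 59.8 in NPA shoots. Both signals were above the floor, and the control was the higher one. The gene was 4.07-fold lower with NPA, a log2 ratio of -2.02, and stood 8th from the bottom among 6809 named genes above the floor on both arrays. The genes next to it in that order had log2 ratios of -2.10 and -2.01. The 500 probe sets closest to it in mean signal, among those above the floor on both arrays, had log2 ratios with an SD of 0.60. In shoot tissue, fewer cells of the type that makes a transcript and less of it per cell cannot be told apart, and this holds for every gene below.

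AT4G15660 gave a signal of 69.1 in control shoots and of 19.4 in NPA shoots, the second below the floor. It was therefore at least 2.48-fold lower with NPA, a log2 ratio of -1.31 as a bound. ARR15 gave 59.8 in control shoots and 14.5 in NPA shoots, again below the floor, and was at least 2.14-fold lower, with a bound of -1.10. Both genes thus exceeded the floor only in the control, and that floor is a percentile of the array and not a detection limit. Among the 515 named genes at the floor with NPA alone, 18 had a bound of 2-fold or more, these genes included, and since all share the NPA floor the bounds follow the control signal only. The SD of the log2 ratio among the 500 probe sets of nearest floored signal was 0.48 for AT4G15660 and 0.46 for ARR15. Only probe sets above the floor on both arrays were used. This cuts the spread near the floor, so these SDs do not describe the spread of bounds.

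**Figure D1:**
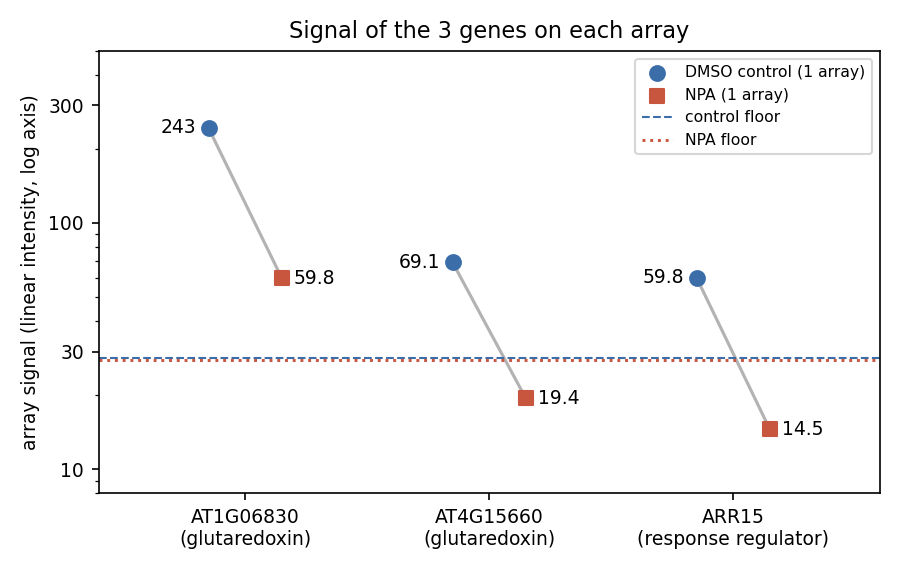
Signal of AT1G06830, AT4G15660 and ARR15 on the DMSO control array (circles) and the NPA array (squares), 1 array per group, on a log axis of linear intensity; the dashed and dotted lines are the floors of the 2 arrays, 28.3 and 27.9. AT1G06830 stays above the floor with NPA at 59.8, while AT4G15660 and ARR15 fall below it at 19.4 and 14.5.

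The position of the floor set the size of the difference for AT4G15660 and ARR15, but hardly for AT1G06830. As deposited, with no floor, the signals of AT4G15660 gave a log2 ratio of -1.83 and those of ARR15 -2.04. With the floor at the 55th percentile these bounds shrank to -0.33 and -0.12, so neither gene passed 2-fold. AT1G06830 had log2 ratios between -2.07 and -1.63 in all 9 alternative settings tried, the last when the floor was added to each signal in place of a cutoff. Moving or removing the floor left it at -2.02, as both its signals exceeded every floor tried. The settings on shared or averaged probe sets could not move a gene with 1 probe set. Under median, quantile and lowess scaling the ratio of AT1G06830 lay between -2.07 and -2.02, that of AT4G15660 between -1.33 and -1.29 and that of ARR15 between -1.12 and -1.07. The 27 bacterial control probe sets outside the spike-ins were taken to have no added RNA. They had a median of 4.75 on the control array, against 2.47 for NPA. Their highest signals were 15.7 in the control and 10.9 with NPA, the latter below the NPA signals of AT4G15660 and ARR15. The 5603 genes at the floor on both arrays had a median log2 ratio of -0.26 as deposited. The part of these array differences in the values below the floor was not tested.

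**Figure D2:**
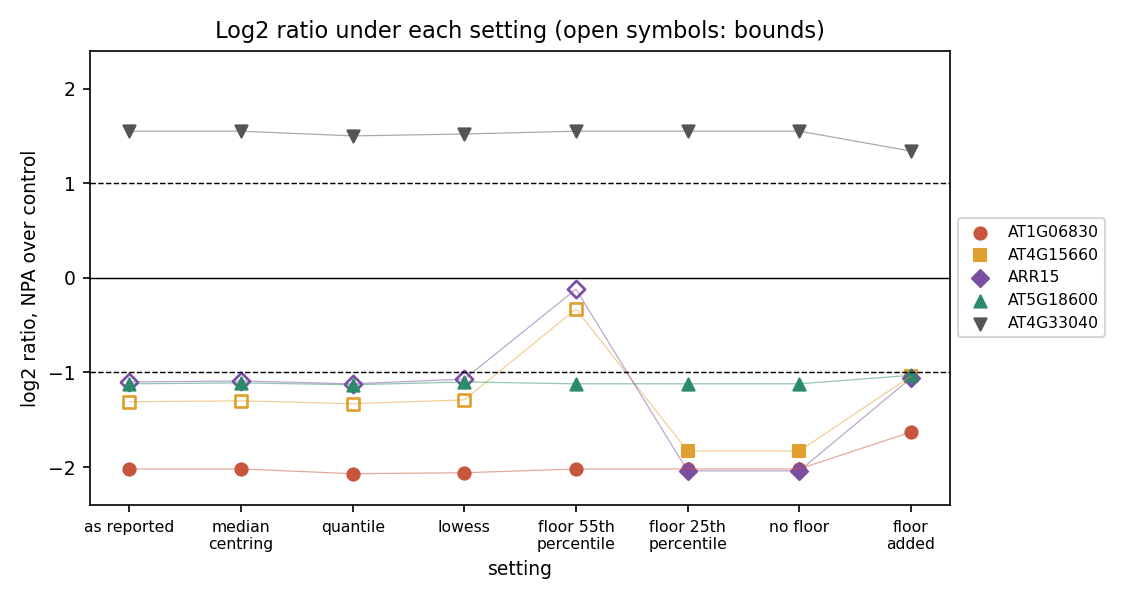
Log2 ratio of NPA over control for AT1G06830, AT4G15660, ARR15 and the CC-type glutaredoxins AT5G18600 and AT4G33040 under each setting, with 1 array per group; open symbols are bounds, dashed lines mark 2-fold. AT4G15660 and ARR15 rise to -0.33 and -0.12 with the floor at the 55th percentile, while AT1G06830, AT5G18600 and AT4G33040 stay beyond 2-fold in every setting drawn.

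The other CC-type glutaredoxin genes show whether the lower signals of AT1G06830 and AT4G15660 were shared by the family. The list of CC-type genes was written by locus from general knowledge of the family, since the gene table gives most of these loci no symbol, and every count below rests on it. Of 21 genes listed, 17 had a named probe set, 12 were measured and 5 were at the floor on both arrays. Including both chosen genes, 4 of the 12 were at least 2-fold lower with NPA and 2 at least 2-fold higher, where 2.13% and 3.75% of the 7753 measured genes were. Without the chosen genes, 2 of 10 were lower and 2 of 10 higher, and the family held members on both sides, from -1.24 to 1.55. The median log2 ratio of the 10 was -0.34, beside -0.03 over all measured genes. Of these 10, 7 were above the floor on both arrays. The other 3 exceeded it in the control only, so their log2 ratios could only fall below 0. The median of the 10 therefore does not show a lean of the family. GRXS13, AT2G47870, AT3G21460 and AT4G15670 carry no named probe set here and were not analysed.

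The 2 other lower genes were AT5G18600 and AT3G62960. AT5G18600 had signals of 503 and, with NPA, 232, both well above the floor, and was 2.17-fold lower. Its log2 ratio stayed between -1.13 and -1.03 in all 9 alternative settings, several of which cannot move a bright gene with 1 probe set. AT3G62960 had 89.5 and 37.9 and was 2.36-fold lower, but it missed 2-fold when the floor was raised to the 55th percentile, at -0.70, or added to each signal, at -0.84. AT2G47880 had 172 and 88.1, a log2 ratio of -0.96 that lies just short of 2-fold. It passed 2-fold after quantile normalization, at -1.03, and barely after lowess centring.

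A pair of genes went the other way. AT4G33040 had signals of 115 and, with NPA, 336, and was 2.92-fold higher. Its log2 ratio of 1.55 stayed between 1.34 and 1.55 in all 9 alternative settings, though several of these cannot move it, as it has 1 probe set and bright signals. AT5G11930 had 40.4 and 108 and was 2.68-fold higher, and came to 0.99 on the log2 scale once the floor was added to each signal, just under 2-fold. Neither signal of these genes was at the floor. Of the 8 CC-type genes above the floor on both arrays, 4 had log2 ratios below 0 and 4 above. AT1G06830 is among the former and was chosen for it, and GRX480 is among the latter with both signals close to the floor. Over all measured genes, bounds included, 52.6% were below 0, so this split says nothing particular of the family.

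AT2G30540 and GRX480 had log2 ratios above 0 but under 2-fold. AT2G30540 had signals of 89.8 and 125, a log2 ratio of 0.48. GRX480, a salicylic acid-induced partner of TGA factors, had 29.5 and 39.6, both close to the floor, and a log2 ratio of 0.43. A further 3 genes were above the floor in the control alone. AT4G15680 had 49.8 and 11.2 and was at least 1.79-fold lower, AT3G62950 had 39.6 and 1.87 and was at least 1.42-fold lower, and AT1G03020 had 31.5 and 10.6 and was at least 1.13-fold lower. At a floor of the 25th percentile the bounds of AT4G15680, AT3G62950 and AT1G03020 passed 2-fold, at log2 ratios of -1.98, -1.65 and -1.32.

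**Figure D3:**
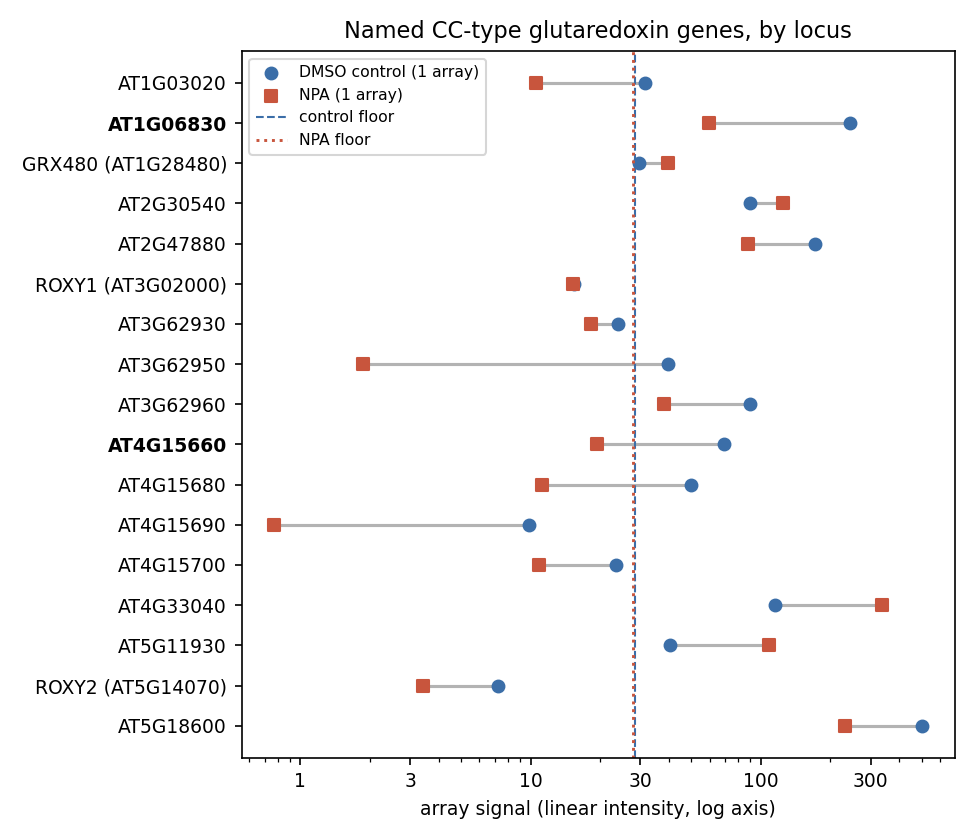
Signals of the 17 CC-type glutaredoxin genes with a named probe set on the DMSO control array (circles) and the NPA array (squares), 1 array per group, on a log axis of linear intensity, in locus order; the lines are the floors and bold type marks AT1G06830 and AT4G15660. Leaving out the chosen pair, the NPA square lies left of the control circle in 11 of 15 genes, ROXY1 by very little, where 57% of all named genes were lower, and the levels of different probe sets are not comparable with each other.

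AT4G15660 is the first of a run of 5 neighbouring CC-type genes on chromosome 4, from AT4G15660 to AT4G15700, of which 4 had a named probe set. Besides AT4G15660, which was chosen for it, the other 3 also had a lower deposited signal with NPA, as did 57% of all named genes and 63.7% of those at the floor on both arrays. AT4G15680 is given above, AT4G15700 had 23.4 and 10.8, and AT4G15690 had 9.89 and 0.77, so both of the latter were at the floor on both arrays and are given no fold. The sequences of neighbouring copies can be alike enough for a probe set to bind transcripts of several of them, and the probe sequences were not used here, so these 4 readings may not be independent. Shorter runs hold AT2G47870 and AT2G47880 on chromosome 2, and AT3G62950 and AT3G62960 on chromosome 3. AT2G47870 has no named probe set, and AT2G47880 had a log2 ratio of -0.96. Both genes on chromosome 3 were lower with NPA, as were 57% of all named genes as deposited. AT3G62950 is only a bound, with an NPA signal of 1.87, and that pair may not be independent either. AT1G06830 and ARR15, both on chromosome 1, have no listed CC-type gene as a direct neighbour.

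The genes at the floor on both arrays were AT3G62930, AT4G15690, AT4G15700, ROXY1 and ROXY2. ROXY1, which acts in petal and anther development, had 15.4 on both arrays, and ROXY2, its partner in the anther, had 7.20 and 3.40. AT3G62930 had 24.0 and 18.3. As deposited, and leaving out the chosen AT1G06830 and AT4G15660, 11 of the 15 named CC-type genes had a lower signal with NPA, and so did 57% of all 13356 named genes and 63.7% of the 5603 at the floor on both arrays. With no floor, 8 of these 15 were at least 2-fold lower, where 10% of all named genes were. Of these 8, only AT5G18600 and AT3G62960 were above the 40th percentile floor on both arrays. The others rest on NPA signals below it, and no 2-fold share was computed for genes at that level. AT4G15680, AT4G15690 and AT4G15700 among them lie in the run of AT4G15660 and may not be independent of it.

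**Figure D4:**
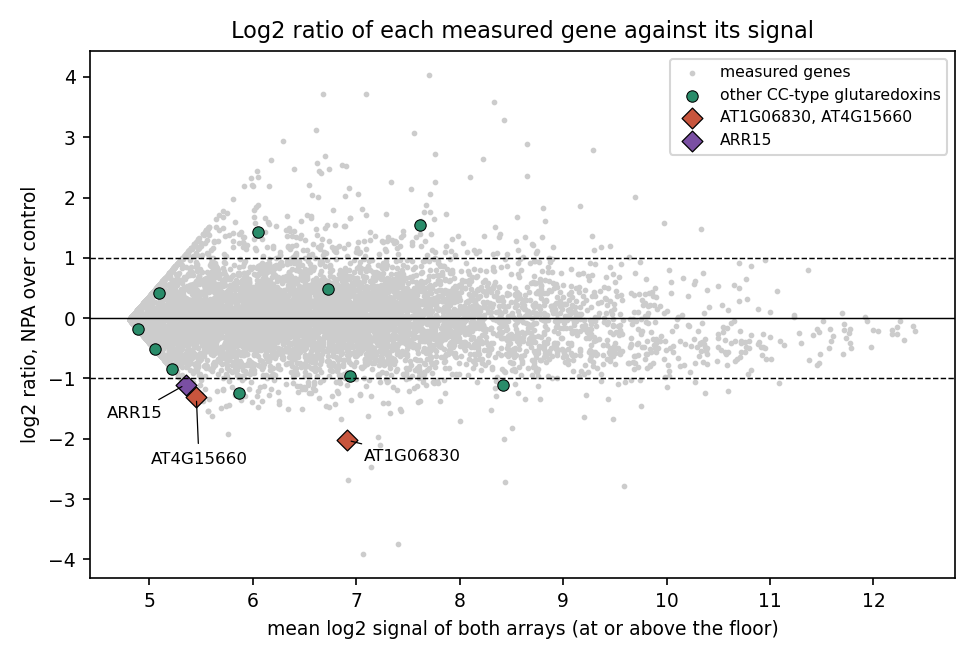
Log2 ratio of NPA over control against the mean log2 signal of both arrays for the 7753 measured genes (grey), the 10 other measured CC-type glutaredoxins (green circles) and AT1G06830, AT4G15660 and ARR15 (diamonds), 1 array per group; dashed lines mark 2-fold, and points on the slanted left edge are bounds. AT1G06830 lies at -2.02, AT4G15660 and ARR15 lie on the edge at -1.31 and -1.10, and 2 CC-type genes lie above 1.

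Glutaredoxins of the other types were read as well. Of 10 listed, 5 were named and measured, all above the floor on both arrays, with a median log2 ratio of 0.37. None of these 5 was at 2-fold, which at the shares of 2.13% and 3.75% over all measured genes says nothing particular of them. AT1G77370 had 174 and 298, a log2 ratio of 0.77, and GRXC2 had 555 and 922, a log2 ratio of 0.73. GRXC1 had 113 and 146, at 0.37. AT2G20270 and AT5G20500 had log2 ratios of -0.10 and -0.19. Of the glutathione reductases, which regenerate the glutathione that glutaredoxins use, the gene listed as GR had 889 and 555, a log2 ratio of -0.68, and GR1 had 618 and 552, at -0.16. Neither reached 2-fold.

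ARR15 was the only measured gene among the listed cytokinin genes. Of 10 type-A genes, 2 had a named probe set. RR16, also known as ARR16, had 25.8 in the control and 27.2 with NPA, at the floor on both arrays. Of 13 type-B and type-C genes, 3 were named and all were at the floor on both arrays, RR18 with 20.7 and 11.1, RR19 with 2.55 and 5.36 and RR22 with 1.73 and 0.88. None of the listed cytokinin receptor, phosphotransfer, synthesis, breakdown and response factor genes had a named probe set here, so the remainder of the pathway was not analysed. The same was true of the TGA factors. Of 22 nitrate response genes 2 were measured, and AT1G68670 and AT1G25550 had log2 ratios of 0.02 and -0.06. The sign of AT1G68670 turned after quantile normalization and lowess centring, at -0.04 and -0.01.

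Genes of like pattern were sought as the 3 named genes nearest to each of the 3 in the pair of floored log2 signals, among genes in the same state relative to the floor; the 2 arrays are the only points of that comparison. Nearest to AT1G06830 were AT4G21870 with signals of 206 and 65.0, AT5G12050 with 243 and 78.7, and AT1G33811 with 295 and 74.9. They were 3.17-fold, 3.09-fold and 3.94-fold lower with NPA, all less than AT1G06830. For AT4G15660 and ARR15, whose candidates all share the NPA floor, the distance is the difference in control signal alone and says nothing of a like change. Nearest to AT4G15660 were AT5G47380, the trichome patterning gene TRY and the receptor kinase gene EMS1, at least 2.32-fold, 2.31-fold and 2.27-fold lower. TRY, which inhibits trichome fate, had 64.3 in the control and 20.9 with NPA. Nearest to ARR15 were AT1G72140, AT3G31920 and AT1G79770, at least 2.15-fold, 2.14-fold and 2.11-fold lower.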

How the data were processed

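Total RNA from shoots was labelled with biotin and hybridised to 2 arrays, 1 for DMSO control and 1 for NPA, grouped by the treatment in the labels. The deposited values are linear intensity, 1 signal per probe set, and the authors made them with MAS5 and GCOS, per the submitters' processing notes, which name no version. Of 22810 probe sets, 64 controls were set apart. Of the remaining 22746, 13513 carry 1 gene, 503 several and 8730 none, and 13436 of the 13513 matched the TAIR10.1 gene table by identifier. That table served for names and neighbours only. Floors, bounds and the 2-fold size rule are defined in the results. Depth has no meaning for arrays, and their number limits the precision.

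The members and gene lists were chosen with earlier results of these data known. Named genes are the 3 members, all measured list genes and the 3 genes of nearest signal per member; other genes named were chosen after their values were seen. The spread around a gene is the SD of the log2 ratio over the 500 probe sets nearest in mean floored log2 signal. Only probe sets above the floor on both arrays entered it. Alternatives were median, quantile and lowess scaling (span 0.3), no floor or one moved to the 25th or 55th percentile, adding the floor to each signal, leaving out shared probe sets, averaging the probe sets of a gene, and size rules of 1.5-fold and 3-fold. The scaling steps were also run on simulated arrays with noise at the spike-in SD of 0.21. Probe sets above the floor on both real arrays had an SD of 0.56. Changes were planted only in bright probe sets, so that run does not cover bounds such as those of AT4G15660 and ARR15. Tables were handled with pandas 2.3.3 and numpy 2.4.6 in Python 3.11.15, lowess came from statsmodels 0.14.6, trimmed means from scipy 1.17.1, and plots from matplotlib 3.10.9.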

Additional observations from a re-analysis of the deposited data

How the results depend on the processing

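No paired analysis was possible because each group has 1 array, and no array could be left out. Of 27 values of AT1G06830, AT4G15660 and ARR15 under the alternatives, 21 moved by less than the spread around the gene, 6 moved by more and 0 changed sign. Several of the 21 could not move, since moving or removing the floor leaves AT1G06830 as it was and each gene has 1 probe set. That spread is taken across other probe sets above the floor on both arrays and is not a measurement error. It is cut short near the floor, at 0.25 for AT1G03020. The 6 come from the floor alone. At a floor of the 25th percentile the log2 ratio was -1.83 for AT4G15660 and -2.04 for ARR15, and the same with no floor, while at the 55th percentile it was -0.33 and -0.12. CC-type glutaredoxins at least 2-fold lower numbered 4 of 12, but 7 of 15 at the lower of these floors, 2 of 8 at the higher one, 10 of 17 with no floor, and 1, AT1G06830 itself, by a 3-fold rule. Without the chosen AT1G06830 and AT4G15660, these were 2 of 10, 5 of 13, 1 of 6 and 8 of 15 under the 4 floor settings in that order, where 2.13%, 2.97%, 1.96% and 10% of all measured genes were lower. With no floor, most of these lower genes had NPA signals below the 40th percentile, and no 2-fold share was computed for genes at that level. Those at least 2-fold higher numbered 2, but 1 after adding the floor to each signal and 0 by a 3-fold rule. ARR15 as the type-A gene at least 2-fold lower was lost, leaving 0, at the 55th percentile and by a 3-fold rule. Over all genes, 165 were lower and 291 higher. These counts were 71 and 174 after adding the floor, 1340 and 1102 with no floor, 822 and 869 by a 1.5-fold rule and 18 and 75 by a 3-fold rule, and 297 were lower at a floor of the 25th percentile. A size rule changes a count by construction, and the cause of the other shifts was not tested. Of 220 values of the other listed genes, 212 moved by less than the spread and 8 by more, these being AT1G03020, AT3G62950 and AT4G15680 under other floors. These genes, GRX480 and EXPA18 were no longer measured with the floor at the 55th percentile, so they have no value there and are not counted as moved. LHCB4.1 and LHCB4.2 turned positive after lowess centring, at 0.10 and 0.14, LHCB4.2 also after quantile normalization, at 0.06. Leaving out shared probe sets and averaging a gene's probe sets moved none of the 3 genes, since each has 1 probe set.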
